A study of Homo sapiens with 10 samples.

Results

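The genes described here encode the nuclear subunits of the mitochondrial respiratory chain and of the ATP synthase, followed over 5 time points in NKX2-1GFP+ cells sorted from thyroid organoids made from human embryonic stem cells (hESCs). Members were taken by symbol: NDUFA, NDUFB, NDUFC, NDUFS and NDUFV genes, SDHA to SDHD, and symbols starting with UQCR, COX4 to COX8 or ATP5, leaving out pseudogenes, readthrough genes and assembly factors. This gave 86 of the 28265 gene symbols counted: 36 of complex I, 4 of complex II, 9 of complex III, 18 of complex IV and 19 of complex V. NDUFA4, named as a complex I gene, is placed in complex IV, where its protein resides. Of the 86 members, 84 had at least 5 counts in at least 2 libraries and were tested. COX7B2 had no count in any library, and COX8C had 11 counts in all, so both were left untested.

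RNA was sequenced in 2 libraries at each of days 16, 23, 31, 38 and 45 of differentiation, 10 in all. All groups came from line ESIBIe003-A-6, an hESC line with GFP at the NKX2-1 locus and doxycycline-inducible NKX2-1 and PAX8 transgenes, and every group had received the doxycycline pulse before day 16. The labels give cAMP for days 16, 23 and 31, TSH with dexamethasone (a glucocorticoid) for day 38, and TSH with SB431542 (an inhibitor of the TGF-beta receptor kinase) for day 45. By the study's methods cAMP was first added at day 16, the day 45 medium also held dexamethasone, each sample pooled several wells, and the change to TSH was scheduled shortly before day 31, for which the labels are followed here. Day and medium changed together from day 31 on and, by that schedule, also between days 16 and 23. Over those spans their effects cannot be told apart, and samples kept on cAMP to day 38 or 45 were not analysed here. Only a single line was used, and sorted cells are those that switched on the NKX2-1 reporter, a gene also used by lung and forebrain.

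Respiratory complexes I to IV pass electrons from NADH and succinate to oxygen and, apart from complex II, pump protons across the inner mitochondrial membrane. Complex V, the ATP synthase, lets the protons back and makes ATP. Most subunits are encoded in the nucleus and imported, while a small core is encoded in mitochondrial DNA, whose genes were not analysed here. In thyroid follicular cells, TSH and cAMP are the main drivers of metabolism and hormone synthesis, which needs hydrogen peroxide and energy.

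Counted totals ran from 7247268 to 10333933 per library. Values are counts scaled to a common library total (CPM) with TMM factors, and a floor of 3 counts corresponds to between 0.29 and 0.414 CPM. The thyroid transcription factors PAX8 and FOXE1 had at least 1407 counts in every library and NKX2-1 at least 400. TG, which encodes thyroglobulin, stood at 10.7 and 11.7 CPM in the day 16 libraries and 200 and 212 in those of day 31. It was 5547 and 4875 in those of day 38, and 7964 and 7525 in those of day 45. Other thyroid markers went the other way. FOXE1 was 897 and 630 CPM at day 16 against 204 and 218 at day 45. HHEX was 302 and 264 CPM at day 38 against 149 and 162 at day 45. Over that last week NKX2-1 went from 154 and 133 to 58.1 and 66.7 CPM (log2 fold change -1.20). IYD went from 191 and 186 to 69.1 and 80.5 CPM (log2 fold change -1.33), and both were called lower. Markers of other cells also moved with day 38. The summed level of 15 cardiac and striated muscle markers was 76.4 and 92 CPM at day 31 against 470 and 455 at day 38, with RYR2 the most abundant. Of those, 7 of 14 tested were called higher, while MYL2 had 0 counts in all 4 of these libraries and MYH7 between 8 and 32. The 8 fibroblast markers, led by COL3A1, summed to 1864 and 2197 CPM at day 31 against 4494 and 4682 at day 38, with 4 called higher and 2 lower. Of the other marker groups, airway and lung went from 529 and 543 to 72.4 and 60.1 CPM in sum (2 of 7 tested higher, 2 lower) and liver went from 158 and 135 to 107 and 64.6 (2 of 4 lower). Most of the airway and lung sum at day 31 was SFTPB, at 499 and 502 CPM, which was 6.59 and 8.62 at day 38. MUC5AC went from 1.54 and 0.81 to 29.7 and 21.9 CPM, and FOXJ1 from 20 and 20.8 to 5.83 and 6.05. Endothelial markers summed to 54.6 and 51.1 and then 19.9 and 24.3 CPM (2 of 5 lower), and forebrain markers stayed under 10 CPM (0 of 5 called). The pluripotent markers summed to 107 and 93.3 and then 20.3 and 20.5 CPM (1 of 2 lower), nearly all of it DPPA4. POU5F1 had at most 1 count and NANOG at most 13 in any library. RN7SK, a small nuclear RNA, took 2.92 and 3.86% of the counts at day 31 and 8.17 and 6.76% at day 38, but was also at 6.82 and 7.11% at day 16. The part of these in the results below was not tested, and in bulk RNA fewer cells of a type cannot be told apart from less RNA per cell.

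The summed transcripts of the members were higher at days 38 and 45 than in any library of the cAMP weeks. Their summed level was 3004 and 3691 CPM in the day 16 libraries, 3451 and 3392 a week later, and 3257 and 3251 by day 31. It was then 4773 and 4220 CPM by day 38 and 4469 and 4703 by day 45. All 4 libraries of days 38 and 45 lay above all 6 earlier ones. The same separation was found for 27 of the 84 members (32.1%), against a background of 8.31% of all genes tested, and no member showed the opposite, for which the background was 5.65%. The mean level was highest at day 45 for 41 members, at day 38 for 31, at day 23 for 7, at day 16 for 3 and at day 31 for 2. By complex the summed levels did not move in step. Complex IV went from 552 and 587 CPM at day 31 to 1063 and 899 at day 38, and complex I from 1106 and 1131 to 1505 and 1331. The ratio of summed complex IV to summed complex I, which no scaling factor can change, was 0.499 and 0.519 at day 31 against 0.706 and 0.675 at day 38. Day 45 gave 0.712 and 0.709, day 23 gave 0.523 and 0.501, and day 16 gave 0.576 and 0.637, so the day 16 libraries lay between the others. Complex II was the exception, at 184 and 156 CPM at day 31 against 175 and 151 at day 38, where the groups overlapped.

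**Figure D1:**
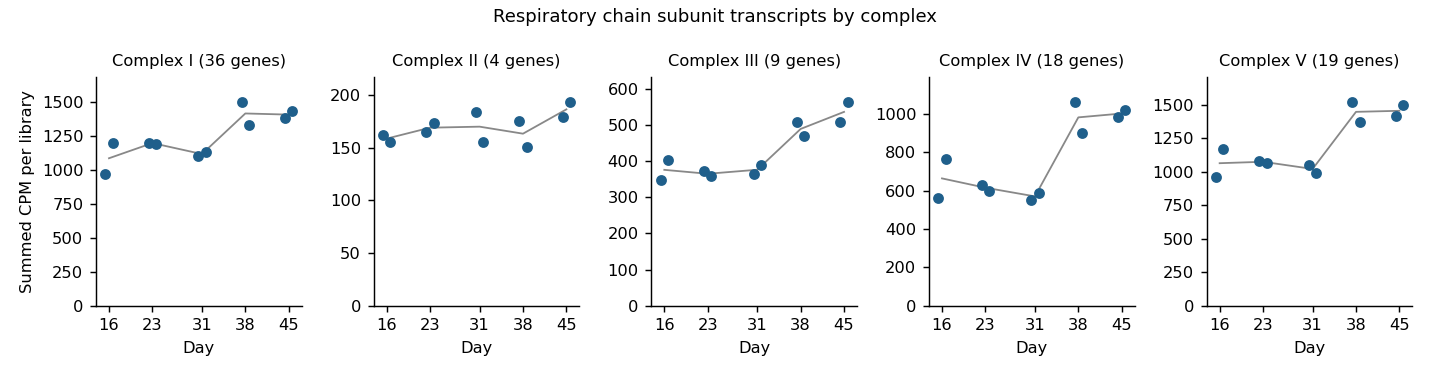
Summed CPM of the members of each complex (vertical axis, from 0) against day (horizontal axis), with a point for each of the 2 libraries a day and a line through the day means. Complexes I, III, IV and V step up between days 31 and 38, complex IV from 552 and 587 to 1063 and 899 CPM, while complex II stays between 151 and 194 CPM in all 10 libraries.

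The first question was what moved when cAMP was replaced by TSH and dexamethasone, between days 31 and 38. Most of the members called were subunits of cytochrome c oxidase (complex IV) and the ATP synthase, and few were subunits of complexes I to III. With edgeR's quasi-likelihood test and Benjamini-Hochberg adjustment over all genes, 30 of 84 members (35.7%) were higher at day 38 and 1 was lower, against a background of 8.8% of all genes higher and 6.23% lower. The median log2 fold change of the 84 members was 0.54, a fold of 1.46, beside 0 over all genes tested. Both day 38 libraries lay above both day 31 libraries for 58 members (69.0%), where the background was 30.2%, and below for 4 (4.76%), where it was 26.9%. Those above were 13 of 16 in complex IV, 17 of 19 in complex V and 1 of 4 in complex II. In complex I they were 22 of 36 (61.1%) and in complex III 5 of 9 (55.6%). By complex, 13 of 16 tested members of complex IV were called higher, 11 of 19 of complex V, 4 of 36 of complex I, 1 of 9 of complex III and 1 of 4 of complex II. The median fold was 1.68 for complex IV (1.65 without COX6A2, which had no count at day 31), 1.62 for complex V, 1.31 for complex III, 1.29 for complex I and 0.969 for complex II.

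The size of the count depended on single libraries and on scaling, while the direction did not. Leaving out day 38 replicate 1 left 6 members called higher, day 31 replicate 2 left 7, day 31 replicate 1 left 14 and day 38 replicate 2 left 19, with the remaining library of that day assumed to vary like the other days, and the members' median stayed between 0.45 and 0.63. Without TMM factors 11 members were called higher and 1 lower (all genes 1182 higher and 2368 lower, against 1850 and 1310 with TMM), where the median over all genes was -0.20 and that of the members 0.32, a difference of 0.52.

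**Figure D2:**
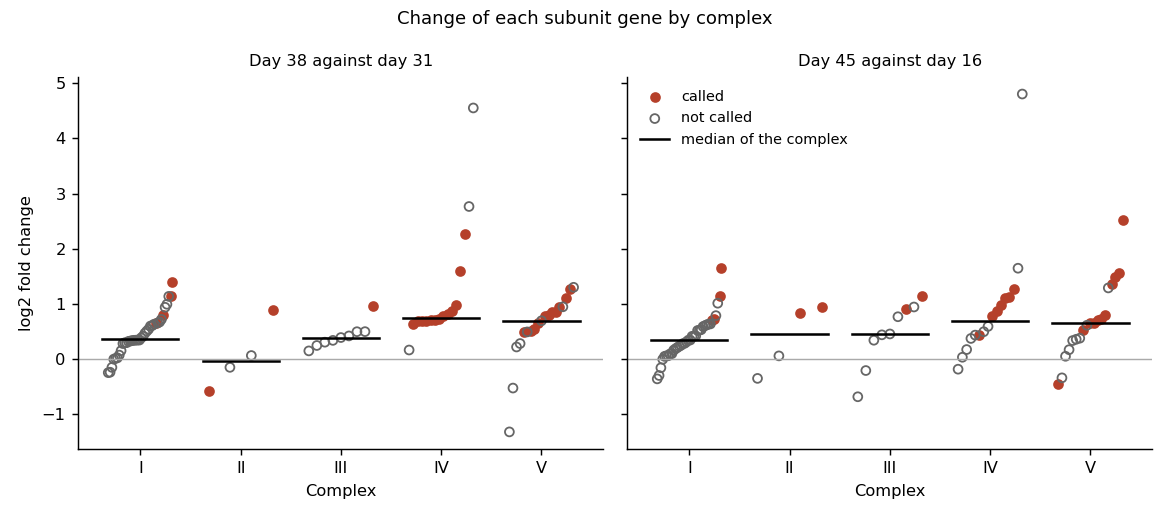
Log2 fold change of each tested member (vertical axis) by complex (horizontal axis) for day 38 against day 31 (left) and day 45 against day 16 (right), with filled points for members called at an adjusted p under 0.05, open points for the others and a bar at the median of the complex. At day 38, 13 of 16 complex IV and 11 of 19 complex V points are filled, against 4 of 36 of complex I; the highest open point in each panel is COX6A2, whose fitted value is no measure of size because it had no count at day 31 or day 16.

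Complex IV passes electrons from cytochrome c to oxygen, and its nuclear subunits surround a core encoded in mitochondrial DNA. COX8A, a small transmembrane subunit (chromosome 11, 63974620 to 63976543, plus strand, GRCh38), was 16 and 13.8 CPM at day 31 against 50.9 and 39 at day 38. Both day 38 libraries were more than any library of days 16 to 31, of which the highest was 26.2 CPM. The log2 fold change was 1.59 ± 0.27 (SE, n = 2 a day, edgeR adjusted p = 3.95e-05), and 35.4% of its exon bases are shared with another annotated gene on its strand. COX7C, another small subunit, was 47.8 and 50.3 CPM at day 31 against 110 and 83.6 at day 38 (log2 fold change 0.98, edgeR adjusted p = 0.000755). NDUFA4 was 119 and 109 CPM at day 31 against 198 and 169 at day 38 (log2 fold change 0.69, edgeR adjusted p = 0.000873). These were the 3 members whose day 38 call held under each of the 18 other settings tried, among them leaving out each library in turn.

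The remaining complex IV calls were closer to the threshold. COX4I1, the common form of the subunit that carries the allosteric ATP site, was 51.3 and 58.6 CPM at day 31 against 106 and 82.6 at day 38 (log2 fold change 0.78 ± 0.22 SE, edgeR adjusted p = 0.012). Day 16 replicate 2 was as high, at 106 CPM, while replicate 1 was 50.5. COX5A, which lies on the matrix side, was 19.7 and 39.8 CPM at day 31 against 51.7 and 57.3 at day 38 (log2 fold change 0.88 ± 0.25 SE, edgeR adjusted p = 0.0116), and it stayed high at day 45, at 65.9 and 72.6. COX5B, COX6A1, COX6B1, COX6C, COX7A2, COX7B and COX7A2L had log2 fold changes of 0.63 to 0.82 and edgeR adjusted p-values of 0.00644 to 0.0449. With DESeq2 the calls of COX5B, COX6A1, COX6B1, COX7A2 and COX7B were lost. Without TMM factors those 5 and the calls of COX4I1, COX4I2, COX5A and COX7A2L were lost, which left 4. The COX4I1 call was lost with the length offset too, and COX6A1 was kept in 7 of 18 other settings. For COX6A1, 59.8% of 50-base stretches occur elsewhere in the genome and 32.6% of exon bases overlap another gene on its strand. COX7A2L, which joins complexes III and IV into supercomplexes, was called lower earlier, at day 23 against day 16, a call kept in 8 of 18 other settings. Leaving out either library of day 31 left 5 complex IV members called higher at day 38, leaving out day 38 replicate 1 left 4 and day 38 replicate 2 left 7.

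The stretch of 150 bases before the RefSeq transcription start is printed for 4 complex IV members that were called higher, because they carry the core letters bound by the ETS factor GABP, also known as NRF2, a regulator of respiratory chain genes. In the 300-base promoters described next, 5 of 11 complex IV members called higher held these letters and 6 did not, and over complex IV 5 of 15 did. Capitals mark CCGGAAG or its complement, which begins 37 bases before the start in COX5B, 16 in COX6A1, 12 in COX6B1 and 18 in COX8A. Sequences are from RefSeq on GRCh38.p14, read 5′ to 3′ on the plus strand at chr2:97645912-97646061, chr12:120437963-120438112, chr19:35648173-35648322 and chr11:63974470-63974619.
COX5B: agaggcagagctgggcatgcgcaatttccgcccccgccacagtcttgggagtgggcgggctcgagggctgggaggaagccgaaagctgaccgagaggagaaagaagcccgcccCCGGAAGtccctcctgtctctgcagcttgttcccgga
COX6A1: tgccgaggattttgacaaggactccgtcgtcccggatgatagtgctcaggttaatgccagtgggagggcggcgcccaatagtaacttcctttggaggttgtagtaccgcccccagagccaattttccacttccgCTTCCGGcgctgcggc
COX6B1: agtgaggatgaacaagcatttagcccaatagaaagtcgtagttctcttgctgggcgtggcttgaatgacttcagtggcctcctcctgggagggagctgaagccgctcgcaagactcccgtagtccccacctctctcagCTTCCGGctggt
COX8A: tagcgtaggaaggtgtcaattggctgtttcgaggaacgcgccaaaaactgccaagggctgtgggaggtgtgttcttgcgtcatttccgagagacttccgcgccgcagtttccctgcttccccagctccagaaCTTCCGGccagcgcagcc

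Promoters of 300 bases (250 before the start, 50 after) were matched for 70 of the 86 members, and each gene was counted as holding a motif where any of its listed starts did, on either strand. CCGGAAG was in 21 of 70 members (30.0%) and in 12.2% of 27326 genes. Among the members it was in 11 of 25 called higher at day 38 (44%) and in 10 of 43 tested and not called higher (23.3%). The NRF1 letters (GCGCA, any base, then GCGC) were in 17 of 70 members (24.3%) and 6.97% of all genes, but in 5 of 25 members called higher (20%) and 11 of 43 not (25.6%). AAGATGGC, the core of the YY1 site, was in 12 of 70 (17.1%) and 3.52% of all genes, and in none of 15 complex IV members. TATAAA was in 7 of 70 (10.0%) and 14.0% of all genes. A match is only a run of letters in these windows, and no binding was measured.

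In complex V, calls at day 38 lay in the head, the peripheral stalk, the c ring, the membrane part and the inhibitor. Of the catalytic F1 head, ATP5F1B (the catalytic beta subunit) was 186 and 181 CPM at day 31 against 272 and 249 at day 38 (log2 fold change 0.51 ± 0.13 SE, edgeR adjusted p = 0.00445). ATP5F1A, the alpha subunit, was 284 and 270 CPM at day 31 against 335 and 309 at day 38 and was not called (log2 fold change 0.22, edgeR adjusted p = 0.386). Of 5 head genes 2 were called, with ATP5F1C. In the peripheral stalk, which holds the head still, 3 of 4 were called: ATP5PO (0.86), ATP5PF (0.94) and ATP5PD (0.78 on the log2 scale). In the c ring, which turns as protons pass, ATP5MC2 and ATP5MC3 were called and ATP5MC1, at 1 to 10.5 CPM, was not. Of 6 membrane subunits, ATP5MD, which helps dimers of the synthase form, went from 12.1 and 8.5 CPM to 27.5 and 21.9 (log2 fold change 1.26 ± 0.34 SE, edgeR adjusted p = 0.00904), and ATP5ME and ATP5MG were called as well. ATP5IF1, which inhibits the reverse reaction of the enzyme, was 45.1 and 29.8 CPM at day 31 against 68.3 and 67.7 at day 38 (log2 fold change 0.86 ± 0.22 SE, edgeR adjusted p = 0.00576). Leaving out either day 31 replicate 2 or day 38 replicate 1 left 2 complex V members called higher, and day 31 replicate 1 left 5. Without TMM factors 4 were called, ATP5PO, ATP5ME, ATP5MD and ATP5IF1, so none in the head or the c ring. With the length offset 4 were called, ATP5F1B, ATP5MC3, ATP5PO and ATP5MD.

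Complex I, the largest, takes electrons from NADH. None of its 7 core subunits tested was called at day 38. NDUFV1, which binds NADH, was 46.4 and 41 CPM at day 31 against 38.1 and 35.4 at day 38 (log2 fold change -0.25, edgeR adjusted p = 0.562), and NDUFS1, of the same arm, was 138 and 161 and then 126 and 143 (log2 fold change -0.15, edgeR adjusted p = 0.567). The 4 calls were accessory subunits, namely NDUFA5, NDUFA7, NDUFB4 and NDUFB5. NDUFA7 was 7.8 and 4.7 CPM at day 31 against 21.9 and 10.8 at day 38 (log2 fold change 1.39 ± 0.41 SE, edgeR adjusted p = 0.0172), but 77.9% of its exon bases overlap other annotated genes on its strand, among them RPS28. Of 36 members, 32 had a positive log2 fold change. Leaving out day 31 replicate 2 or day 38 replicate 1 left 0 complex I calls. The NDUFA7 call was lost also with an offset for transcript length, and that of NDUFA5 without TMM factors. In complex III, UQCR10 was called (21.3 and 15.5, then 37 and 34.7 CPM; log2 fold change 0.96, edgeR adjusted p = 0.0209), a call lost without day 31 replicate 2, without either day 38 library, without TMM factors or with a length offset. The core subunits UQCRC1 and the Rieske iron-sulphur protein UQCRFS1 were not, at log2 fold changes of 0.15 and 0.24.

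Complex II, which oxidises succinate and is also an enzyme of the TCA cycle, was the only complex with calls in both directions at day 38. SDHA, the flavoprotein that oxidises succinate, was 57.4 and 68.4 CPM at day 31 against 44 and 39.7 at day 38, and fell by 0.59 on the log2 scale (SE 0.20, edgeR adjusted p = 0.0403). SDHB, the iron-sulphur subunit bound to it, was 21.9 and 21.2 CPM at day 31 against 44.3 and 35.4 at day 38 (log2 fold change 0.89 ± 0.27 SE, edgeR adjusted p = 0.0188). The day 31 and day 38 libraries did not overlap for either gene. The membrane anchors SDHC and SDHD had log2 fold changes of -0.15 and 0.06 and were not called. The SDHA call was lost without any 1 of the libraries of days 31 and 38 or without day 23 replicate 2, and the SDHB call without either day 31 library, without day 38 replicate 1, without TMM factors or with an offset for transcript length. For SDHA, 21.3% of 50-base stretches occur elsewhere in the genome and 69.4% of exon bases overlap another gene on the same strand. SDHB had neither. The share of such stretches was larger for SDHC (61.1%) and SDHD (50.3%), and 23.8% of SDHD exon bases overlap another gene on its strand.

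The pair is shown because its promoters differ. SDHD, the other complex II member with a matched promoter, held both the NRF1 letters and CCGGAAG in its 300-base promoter. It was not called at day 38. The 300-base promoter of SDHB also held the YY1 letters. SDHA (chr5:218170-218319, plus strand) has the NRF1 letters in 3 copies, beginning 117, 68 and 19 bases before the RefSeq start, and no CCGGAAG in this stretch. SDHB (chr1:17054033-17054182, minus strand) has CCGGAAG 128 bases before its start and no NRF1 letters. Capitals mark those motifs, both stretches are from RefSeq on GRCh38.p14 and each is read 5′ to 3′ in the direction of the gene.
SDHA: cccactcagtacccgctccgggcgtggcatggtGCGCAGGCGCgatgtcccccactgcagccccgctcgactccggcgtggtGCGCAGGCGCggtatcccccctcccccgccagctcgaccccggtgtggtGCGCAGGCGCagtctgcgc
SDHB: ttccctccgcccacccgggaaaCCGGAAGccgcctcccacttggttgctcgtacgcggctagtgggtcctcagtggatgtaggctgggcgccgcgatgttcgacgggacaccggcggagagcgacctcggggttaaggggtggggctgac

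Several complex IV subunits have a second gene used in particular tissues. COX4I2, the form of subunit 4 linked to low oxygen and found in lung (chromosome 20, 31637912 to 31645006, plus strand), was 6.3 and 2.6 CPM at day 16. The day 23 libraries held 3 and 0 counts of it. Day 31 gave 1.3 and 3.4 CPM, day 38 gave 12.4 and 10.1, and day 45 gave 3.3 and 4.5. It was called lower at day 23 (edgeR adjusted p = 0.00147, no fold given at these counts) and higher at day 38 (log2 fold change 2.26 ± 0.76 SE, edgeR adjusted p = 0.0396). Per kilobase of transcript, its share of the COX4 pair was 11.8 and 12.3% at day 38 and 2.87 and 6.16% at day 31, but 12.5% in day 16 replicate 1 and 2.71% in day 16 replicate 2. Without any 1 of the day 31 or day 38 libraries the day 38 call was lost, as it was without TMM factors or with a length offset. Of the muscle and heart forms, COX6A2 had 0 counts in 8 libraries, 6 in 1 of day 38 and 7 in 1 of day 45, which is near the floor. COX7A1 had 0 to 34 counts a library, was 2.9 and 3.71 CPM at day 45, and was not called in any comparison. COX6B2, the testis form, was between 0.7 and 3.6 CPM. UQCRHL, a near copy of UQCRH that shares 53.7% of its 50-base stretches with it, had at most 32 counts, so the reads of that pair cannot be told apart with certainty. ATP5MGL had 0 to 29 counts a library and was not called.

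In the first week of cAMP, day 23 against day 16, 2 of 84 members were higher and 3 lower, against a background of 5.6% of all genes higher and 5.33% lower. NDUFB11, an accessory subunit of complex I, was 24.5 and 34.7 CPM at day 16 against 58.3 and 54.1 at day 23 (log2 fold change 0.92 ± 0.24 SE, edgeR adjusted p = 0.00941). ATP5MC2 was 125 and 121 CPM and then 84.7 and 79.2, and COX7A2L 74.1 and 82.5 and then 47.8 and 57.2, each with a fall of 0.58 on the log2 scale. ATP5F1E rose from 4 and 20 counts at day 16 to 29 and 95 at day 23 (edgeR adjusted p = 0.0494). The NDUFB11 call was lost without day 16 replicate 1 or day 23 replicate 1, that of ATP5MC2 without either day 23 library, and those of ATP5F1E and COX7A2L without any of several libraries, days not compared included. With the length offset ATP5MC2, ATP5F1E and COX7A2L were not called, COX7A2L was lost also without TMM factors or with only the 4 libraries compared, and ATP5F1E with upper-quartile factors or filterByExpr. In the second week of cAMP, day 31 against day 23, COX4I2 was called higher and no other member was, against a background of 1.58% of all genes higher and 0.666% lower. That call started from 3 and 0 counts and was lost in 7 of 18 other settings, among them without day 23 replicate 2, without day 31 replicate 2 or without either day 38 library. At an unadjusted p under 0.05 from edgeR, 2 members were higher and 5 lower, beside 6.75% and 4.61% of all genes. The members' median log2 fold change was 0.02 in the first week and -0.04 in the second.

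The labels name SB431542 for day 45 and not for day 38, although the study's schedule starts it at or just before day 38. At day 45 against day 38, 1 of 84 members was called higher and none lower, where the background was 4.85% higher and 6.35% lower. At an unadjusted p under 0.05 from edgeR, 5 were higher and 4 lower, beside 9.89% and 12.5% of all genes. DESeq2 called 3 higher and 0 lower, where it called 6.02% of all genes higher. UQCRB, the small complex III subunit that binds ubiquinone, was 86.8 and 93.5 CPM at day 38 against 130 and 134 at day 45 (log2 fold change 0.55 ± 0.16 SE, edgeR adjusted p = 0.025). This call was lost without any 1 of the day 38 or day 45 libraries. The members' median log2 fold change was 0.02.

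Over the whole course, day 45 against day 16, 25 of 84 members (29.8%) were higher and 1 lower, against a background of 12.9% of all genes higher and 11.7% lower. The median log2 fold change was 0.47, a fold of 1.39. Summed markers of other cells moved over the same span: cardiac and striated muscle from 139 and 143 to 445 and 467 CPM, fibroblast from 925 and 1139 to 4705 and 3813, liver from 7.61 and 11.7 to 219 and 208, and airway and lung from 36.8 and 30 to 188 and 126. The sum of the pluripotent markers, nearly all of it DPPA4, went the other way, from 141 and 141 to 6.24 and 8.85 CPM. Endothelial markers were 23.8 and 20.6 CPM and then 47.9 and 17.1, so the days overlapped. The part of these groups in the result was not tested. By complex, 7 of 16 members of complex IV, 10 of 19 of complex V, 4 of 36 of complex I, 2 of 9 of complex III and 2 of 4 of complex II were called higher. ATP5F1E, the epsilon subunit of the F1 head, was 0.5 and 2.5 CPM at day 16 against 7.5 and 9.6 at day 45 (log2 fold change 2.52 ± 0.75 SE, edgeR adjusted p = 0.0114), a call lost without day 16 replicate 1 or day 45 replicate 2, and 32.7% of its exon bases overlap a gene on the other strand. NDUFS7, a core iron-sulphur subunit of complex I, was 10.4 and 14.8 CPM at day 16 against 44.1 and 34.7 at day 45 (log2 fold change 1.64 ± 0.34 SE, edgeR adjusted p = 0.000253), but 51.3% of its exon bases overlap genes on the other strand. ATP5MD was 9.8 and 7.6 CPM at day 16 against 22.2 and 29.3 at day 45, with a log2 fold change of 1.57. UQCRB rose as well (log2 fold change 1.13, edgeR adjusted p = 2.12e-06). NDUFS1 was 108 and 102 CPM at day 16 against 159 and 186 at day 45 (log2 fold change 0.72, edgeR adjusted p = 0.000262). ATP5MC2 was the only member called lower, at 125 and 121 CPM and then 89.3 and 89.1, and this call was lost without day 16 replicate 1, without either day 45 library, with only the 4 libraries compared or with a length offset. The day 16 libraries differed: without replicate 1, 11 members were called higher, and without replicate 2, 34 were. Across all 5 days, 40 of 84 members (47.6%) varied, where the background was 36.3%: 13 of 16 in complex IV, 15 of 19 in complex V, 4 of 9 in complex III, 7 of 36 in complex I and 1 of 4 in complex II.

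Beside the background of 8.8% of all genes higher at day 38, the shares called were 46.2% for fuel and oxygen genes and 66.7% for cytosolic ribosomal proteins. They were 3.77% for assembly factors, 2.7% for mitochondrial ribosomal proteins, 11.8% for TCA cycle genes, 13.3% for electron carriers and 20% for membrane carriers, each of which rests on 2 calls, and no difference from the background was tested for any group. Of 53 tested assembly factors for the 5 complexes, 2 were called higher, UQCC2 (complex III) and HIGD1A (complex IV), and their median log2 fold change was 0.003. Of 74 mitochondrial ribosomal proteins, which make the subunits encoded in mitochondrial DNA, 2 were higher and 1 lower. Of 17 TCA cycle and pyruvate dehydrogenase genes, IDH3G (1.00) and MDH2 (0.91 on the log2 scale) were higher. Of 15 electron carriers and their biosynthesis genes, ETFB and COQ5 were higher, and CYCS, which encodes cytochrome c, was not called (0.21). Of 10 membrane carriers and porins, the outer membrane channels VDAC1 (0.90) and VDAC3 (0.75) were higher. By contrast 52 of 78 cytosolic ribosomal proteins were higher and none lower, with a median of 0.57, and 38 of 78 had been lower at day 23. The median annotated transcript length of the members was 750 bases against 2270 over all matched genes. Over all genes tested the median log2 fold change at day 38 was 0.03 in the class of the shortest transcripts (up to 500 bases) and 0.08 in the next class. With an offset for transcript length, 14 members (16.7%) were called higher and their median was 0.42, and 40 cytosolic ribosomal proteins were called higher. Under that offset 7.92% of all genes were called higher, and the median over all genes was -0.02.

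**Figure D3:**
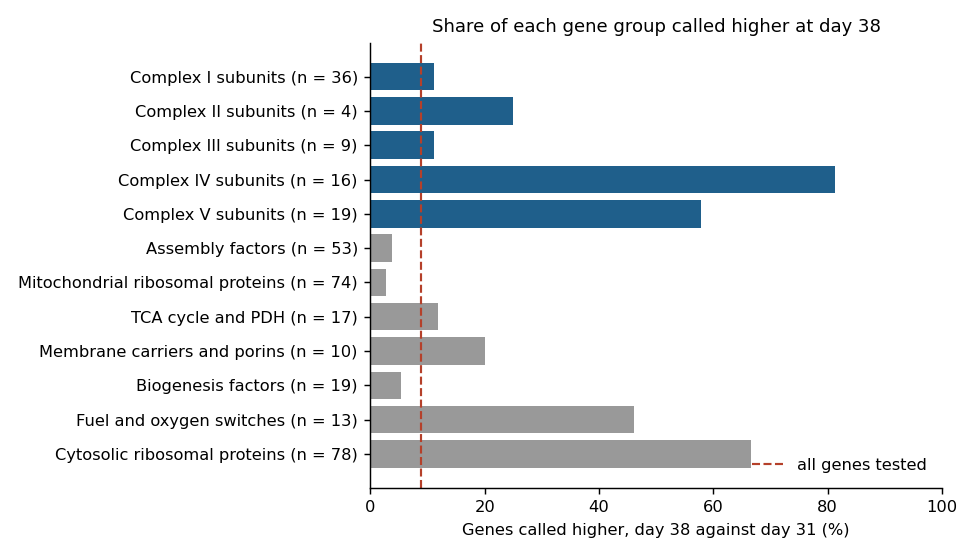
Percent of the tested genes of each group called higher at day 38 against day 31 (horizontal axis) for the members by complex (blue) and for related gene groups (grey), with the number tested beside each name and the share of all genes tested, 8.8%, as a dashed line. Complex IV and the cytosolic ribosomal proteins stand farthest to the right, followed by complex V (57.9%) and the fuel and oxygen genes (46.2%). By this share of calls complexes I and III lie near the line, and assembly factors and mitochondrial ribosomal proteins to its left.

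Among the regulators, PPARGC1A, the coactivator PGC-1alpha that raises mitochondrial biogenesis, was 18.9 and 18.4 CPM in the day 31 libraries, 57.6 and 74.2 in those of day 38, and 96.3 and 147 in those of day 45. Its log2 fold change at day 38 was 1.82 ± 0.23 (SE, edgeR adjusted p = 3.46e-07), and both day 38 libraries lay above every earlier one. TFAM, which packs and transcribes mitochondrial DNA, fell (log2 fold change -0.58, edgeR adjusted p = 0.027) from 86.1 and 84 CPM at day 31 to 59 and 54.8 at day 38. PPARGC1B had 0 counts in all libraries of days 16 and 23 and was 9.44 and 4.81 CPM at day 45, and was called higher at day 45 than at day 16 (edgeR adjusted p = 0.000281). NRF1, GABPA, ESRRA, ESRRB and ESRRG were not called at day 38. Over all 19 mitochondrial biogenesis factors tested, 1 was higher (5.26%) and 1 lower at day 38, beside 8.8% and 6.23% of all genes. At day 45 against day 38, 4 of the 19 were higher (21.1%) and 0 lower, beside 4.85% and 6.35% of all genes. POLG2 (1.52) and PPRC1 (1.23 on the log2 scale) were among these 4. Of 13 genes that set the use of fuel and oxygen, 6 were higher at day 38 and 1 lower, against the background of 8.8% and 6.23%. NDUFA4L2, a relative of NDUFA4 known for its rise at low oxygen, was 3.58 and 5.82 CPM at day 31 against 46.6 and 37.5 at day 38 (log2 fold change 3.16 ± 0.41 SE, edgeR adjusted p = 4.27e-07). LDHA, which makes lactate from pyruvate, was 386 and 353 CPM and then 1609 and 1455 (log2 fold change 2.05), and PDK1, BNIP3, PDK3 and BNIP3L were also higher and PDK4 lower. At day 45 LDHA was lower again than at day 38, at 678 and 705 CPM (log2 fold change -1.15, edgeR adjusted p = 2.81e-09), and so were PDK1, at 86.7 and 79.8 CPM (log2 fold change -1.88), BNIP3 and BNIP3L. Of these 13 genes, 6 had been lower and 1 higher at day 23, where the background was 5.33% and 5.6%. At day 31 against day 23, 4 of the 13 were already higher (30.8%) and 0 lower, where the background was 1.58% and 0.666%. BNIP3 was among these 4, at 55.5 and 61.8 CPM and then 117 and 110 (log2 fold change 0.95). NDUFA4L2 was another, from 0.67 and 0.11 CPM at day 23.

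**Figure D4:**
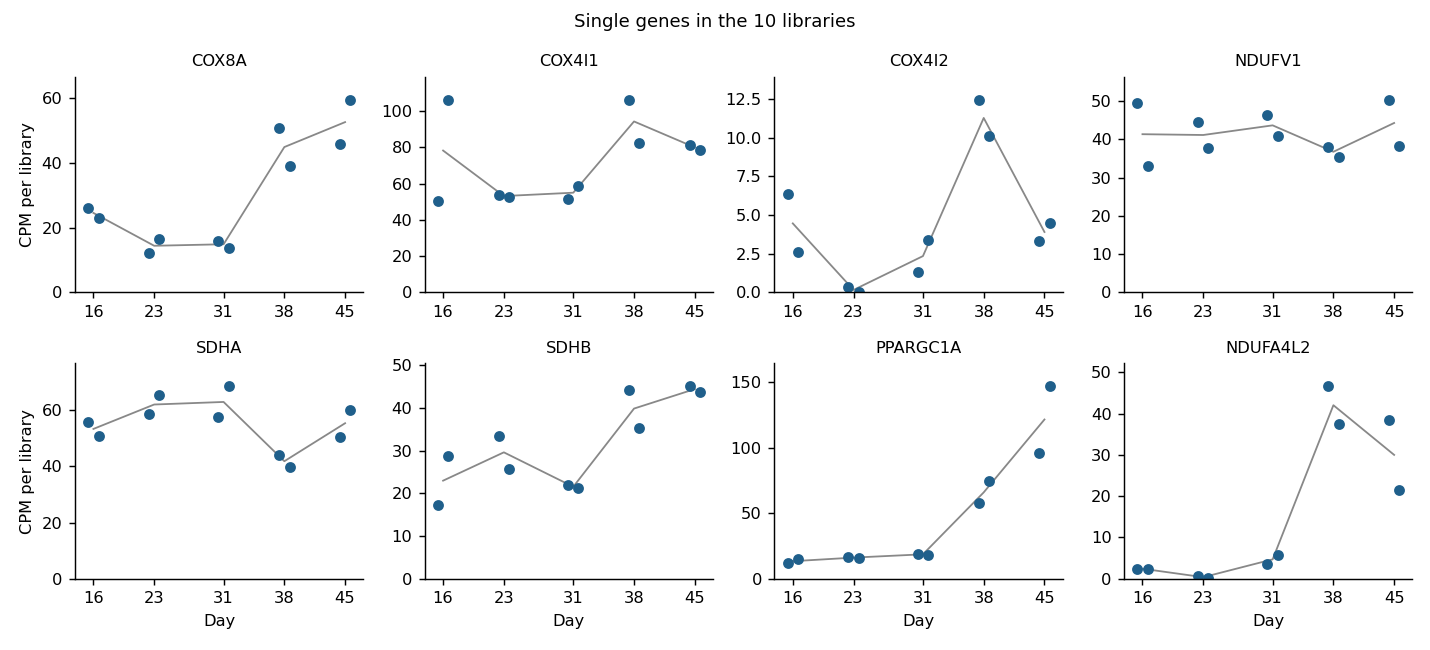
CPM in each library (vertical axis, from 0) against day (horizontal axis) for 6 members and for PPARGC1A and NDUFA4L2, with a point for each of the 2 libraries a day and a line through the day means. COX8A, COX4I2, SDHB, PPARGC1A and NDUFA4L2 step up at day 38 while SDHA steps down and NDUFV1, between 33.1 and 50.2 CPM throughout, shows no call in any comparison.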

How the data were processed

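RNA from NKX2-1GFP+ cells was sequenced in 10 libraries, 2 at each of 5 days. The authors trimmed reads with Trimmomatic, aligned them with HISAT2 and counted them per gene with HTSeq on GRCh38.p13 (versions and strand setting not given in the sources used here), and deposited whole-number counts, which are not normalized. The kit makes libraries from little RNA and no molecular identifiers are named, so counts include PCR copies and floors cover counting error only. The study gives the 2 libraries of a day as biological replicates, each from pooled wells; whether they came from separate differentiations is not stated, so p-values measure the spread between these samples.

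Members and gene lists were chosen with earlier results of these data known. A gene entered the test (21014 did) if 2 or more libraries held 5 or more counts of it. TMM factors and edgeR 4.0.16 (R 4.3.3, limma 3.58.1) were used for a quasi-likelihood fit with a mean per day over all 10 libraries (5 residual degrees of freedom), with Benjamini-Hochberg adjustment over all genes tested and a threshold of 0.05. SE is the log2 fold change divided by the root of the F statistic. The code was tested on simulated data. Named by rule were core subunits of each complex, paralogue pairs, NDUFA4, ATP5IF1 and, per comparison, the 3 called members with the largest change each way with a mean of at least 5 CPM, and of each list the 2 called genes with the largest change; all other genes were named after their values were seen. Positions and overlaps are from GENCODE 44 on GRCh38; 86 members matched. Promoters are from RefSeq on GRCh38.p14. The promoters printed and the motif letters were chosen after values were seen, and stricter NRF1 letters had been tried first.

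Alternatives were DESeq2 1.42.0, upper-quartile factors, plain library size, no filter, edgeR's filterByExpr, only the 4 libraries compared, a replicate block, a transcript length offset and leaving out each library. Separation of later from earlier libraries under other settings, and members free of overlap and repeats, were added after seeing the data.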

Additional observations from a re-analysis of the deposited data

How the results depend on the processing

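The members' median log2 fold change at day 38 against day 31 kept its sign under every alternative run: it was 0.32 by library size without TMM factors and between 0.45 and 0.63 with any 1 library left out. Counts of calls were less stable. At day 38, members called higher numbered 11 by library size and 14 with the transcript length offset. A set of 44 tested members with no exon overlap and few repeats was chosen after seeing the data. In this smaller set 16 (36.4%) were higher and 0 lower, beside 35.7% higher of all 84 members. Complex IV had 8 with DESeq2, 4 by library size and 7 with the length offset, and complex V had 4 by library size and 4 with the length offset. Assembly factors called higher numbered 0 by library size and 1 with upper-quartile factors, filterByExpr or the length offset, mitochondrial ribosomal proteins 4 with only the 4 libraries compared, and cytosolic ribosomal proteins 34 by library size. At day 23 against day 16, members called higher numbered 1 with upper-quartile factors, filterByExpr or the overlap-free set and 4 with the length offset, where 1 was lower and the median was 0.22. At day 31 against day 23, the call was lost (0) with filterByExpr, the 4 libraries or the length offset. At day 45 against day 38, members called higher numbered 3 with DESeq2, 2 by library size, upper-quartile factors or the length offset, 4 (1 lower) with the 4 libraries and 0 in the overlap-free set. At day 45 against day 16, 11 of 44 (25%) were higher in the overlap-free set, beside 29.8% of all 84 members. With the 4 libraries or the length offset 0 were lower. The cause of these differences was not tested.

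With a single library left out, members called higher and lower ranged from 0 to 5 and 1 to 6 at day 23 against day 16, 0 to 1 and 0 to 0 at day 31 against day 23, 6 to 31 and 0 to 1 at day 38 against day 31, 0 to 2 and 0 to 0 at day 45 against day 38, and 11 to 34 and 0 to 1 at day 45 against day 16, with 34 to 46 called for any day. At day 38, complex I ranged from 0 to 5, complex IV from 4 to 13, complex V from 2 to 11, assembly factors from 0 to 3, mitochondrial ribosomal proteins from 1 to 4 and cytosolic ribosomal proteins from 28 to 55. The medians ranged from -0.073 to 0.168, -0.102 to -0.031, 0.454 to 0.635, -0.085 to 0.114 and 0.345 to 0.748 in the same order of comparisons. All 4 later libraries lay above all 6 earlier ones for 21 members by library size and 27 to 34 with 1 library left out.

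Replicates that share a number did not deviate together over all genes tested (correlations of -0.032 to 0.020), so no pairing was seen. Whether libraries of the same number came from the same differentiation cannot be told from this, because counting error enters each deviation. With the replicate block, 31 members were called higher at day 38 against day 31 and 27 at day 45 against day 16.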
